A study of Mus musculus with 6 samples.

Results

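The cells of the CTX library were compared with those of the MRX library, both made from cells of mouse mammary tumours that carry CD45. CTX is read here as cyclophosphamide, an alkylating chemotherapy drug, and MRX as the inhibitor of the receptor tyrosine kinase MERTK, both from the title of the series, since the labels do not spell the codes out. Every barcode with at least 200 genes and at most 15% mitochondrial counts entered, which gave 8898 cells in CTX and 5440 in MRX, or 14338 of the 26843 cells of the 5 libraries used. The labels' protocol describes tumours taken on day 7, from mice treated 3 hours before they were killed, and a sort of live cells that carry CD45, a phosphatase on the surface of leukocytes. CTX, MRX, the library of both drugs (Combined) and the VC library share 1 multiplexed run, and the VC library was not analysed here, so neither drug is set against untreated tumours. Strain, tumour line, doses and the number of animals per library are not given in the sources used here. There is 1 library per drug and no replicate check of any difference: all intervals are 95% intervals of counting error, and no test was run.

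MERTK is carried by macrophages, where it binds the ligands Gas6 and protein S on dying cells and drives their uptake while damping inflammatory signals. Cyclophosphamide cross-links DNA and kills dividing cells, lymphocytes among them. Interferon gamma, released by activated T and NK cells, acts through transcription factors such as Irf1 to raise guanylate-binding proteins, antigen presentation genes, the ligands of the T-cell receptor CXCR3 and the checkpoint ligand Cd274 (PD-L1) in the cells that sense it.

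The MRX library held 39820290 UMIs (unique transcript counts) and CTX 100733879, with a median per cell of 6469.5 in MRX and 9134.5 in CTX. The median mitochondrial share was 1.65% in MRX and 1.56% in CTX. A UMI of Ptprc, the gene of CD45, was seen in 97.6% of MRX and 97.5% of CTX cells, and no barcode was shared between the libraries. After removal of likely doublets, 5169 MRX and 8520 CTX cells were clustered with the other libraries, and each cluster was named from marker genes, as "X-like". Of the CTX cells 6.83% and of the MRX cells 0.987% fell in clusters 10 and 19, which showed markers of more than 1 lineage at high UMI counts and were kept out of the named classes. Cluster 10, led by complement C1q genes with T-cell markers as its next best match, held 423 CTX and 33 MRX cells. Cluster 19, led by genes that include the plasmacytoid dendritic cell markers Klk1, Ccr9, Cox6a2 and Siglech, held 159 CTX and 18 MRX cells. Epithelial-like cells were 0.681% of CTX and 0.213% of MRX, a second B-cell cluster 0.176% and 0.271%, and an unnamed cluster of low UMI counts 1.01% and 0.658%. These were not compared. Gene levels below are the summed counts of a class per 1000000 of its UMIs (CPM), and log2 ratios are CTX over MRX of CPM + 1. A gene is called 2-fold higher from a log2 ratio of 1 upward and 2-fold lower from -1 downward, among genes with at least 100 counts over both libraries and 50 CPM in either. Cell type markers are counted by the ratio alone, whatever their level.

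The lineages stood in different proportions. Monocyte-macrophage-like cells made up 49.4% of CTX (4206 of 8520 cells, interval 48.3 to 50.4%) and 26.1% of MRX (1351 of 5169, 24.9 to 27.4%), a difference of 23.2 percentage points (21.6 to 24.8). T-like cells were 20.0% of CTX and 35.7% of MRX, 15.7 points lower in CTX (14.1 to 17.2). Neutrophil-like cells showed the widest ratio, with 96 cells or 1.13% in CTX against 466 cells or 9.02% in MRX. Plasmacytoid dendritic (pDC)-like cells, the main makers of type I interferon, were 1.91% of CTX and 5.15% of MRX. These were 163 CTX and 266 MRX cells, without the 159 and 18 of cluster 19, so the gap depends on leaving that cluster out. NK-like cells were 7.09% of CTX and 12.6% of MRX. Conventional dendritic-like cells, the main primers of T cells, went the other way, at 5.2% of CTX and 3.56% of MRX.

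The B-like cells, read from cluster 1 alone, were 6.57% of CTX and 5.73% of MRX, a difference of 0.85 points (0.01 to 1.66) that was not beyond counting error under 4 of the alternatives, whose intervals began between -0.003 and -0.06. Shares of 1 library sum to 100%, so a higher share of monocyte-macrophage-like cells lowers the others. Among the cells outside that class, T-like cells were still lower in CTX (39.6% against 48.3%), as were neutrophil-like (2.23% against 12.2%), pDC-like (3.78% against 6.97%) and NK-like cells (14% against 17.1%). Outside that class the share of conventional dendritic-like cells was 10.3% in CTX and 4.82% in MRX, and that of B-like cells 13% and 7.75%. The Combined library, given as a level only, held 27.0% monocyte-macrophage-like, 22.7% T-like, 22% NK-like, 14.7% B-like and 1.82% neutrophil-like cells. It thus lay near MRX in its monocyte-macrophage-like share and near CTX in its neutrophil-like and T-like shares. Sorted libraries give shares and not cell numbers, so a gain of one lineage and a loss of the others cannot be told apart.

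**Figure D1:**
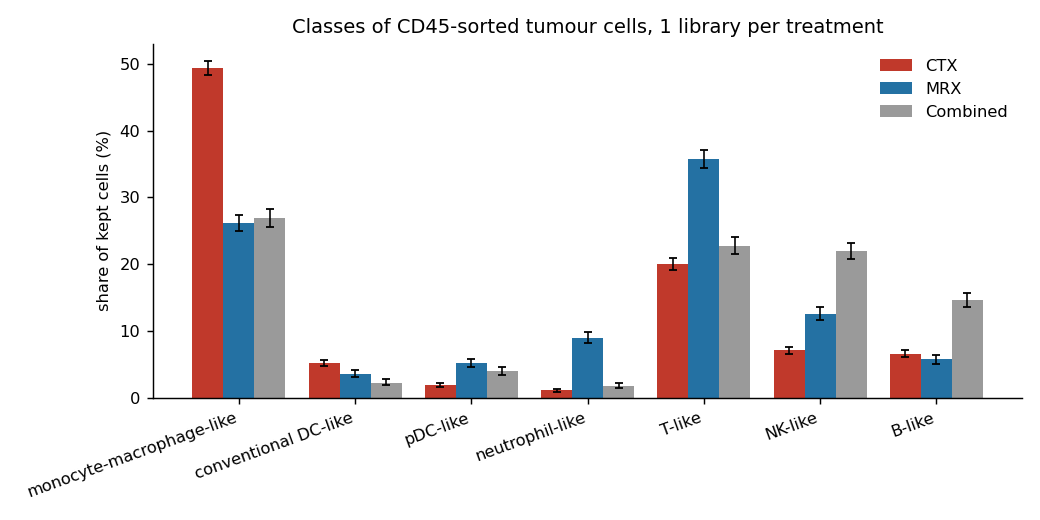
Share of kept cells (%, y axis) in each of the 7 compared classes (x axis) for CTX (red), MRX (blue) and Combined (grey), 1 library each, with exact 95% binomial intervals of counting error as error bars. Monocyte-macrophage-like cells are 49.4% of CTX and 26.1% of MRX, and neutrophil-like cells 1.13% and 9.02%.

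Within the monocyte-macrophage class the libraries occupied different clusters. Of the CTX cells 44.9% were in cluster 0 and 36.4% in cluster 3, while 57.5% of the MRX cells were in cluster 5 and 19.6% in cluster 11. Cluster 0 held 8.07% and cluster 3 14.8% of the MRX cells of the class. Clusters 0, 3 and 5 scored highest on the monocyte markers and cluster 11 on the macrophage markers. In Combined, 67.9% of the class was in cluster 0 and 20.1% in cluster 3. Because the clusters were made from the same cells, their defining genes are not results. The genes of the fixed lists were left out of the clustering, although Cxcl9 and Lpl lead cluster 0 and Cxcl11 leads cluster 3. Genes called 2-fold higher or lower in this class are also given, singly or by their list's median, as a log2 ratio with the same mix of the 4 clusters in both libraries.

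**Figure D2:**
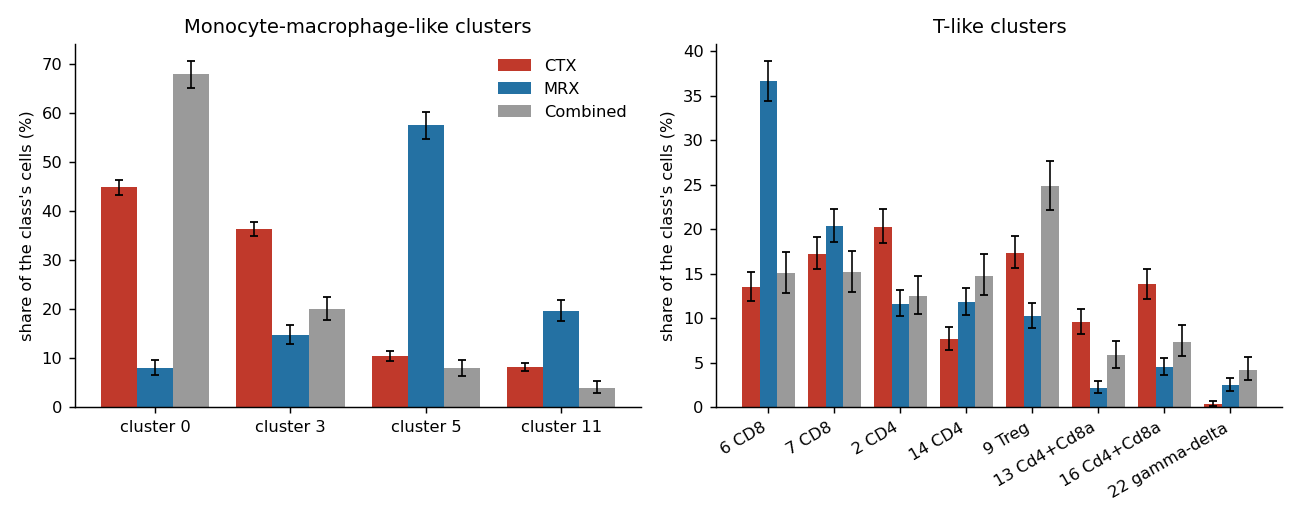
Share of the class's cells (%, y axes) in each cluster (x axes) of the monocyte-macrophage-like (left) and T-like (right) classes for CTX (red), MRX (blue) and Combined (grey), with exact 95% binomial intervals as error bars. Cluster 0 holds 44.9% of the CTX and 8.07% of the MRX monocyte-macrophage-like cells, and cluster 6 holds 13.5% of the CTX and 36.6% of the MRX T-like cells.

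In monocyte-macrophage-like cells, genes that interferon gamma induces were higher in CTX. Of the 12 list members 10 passed the low-value filter, and these 10 were at least 2-fold higher, with a median log2 ratio of 1.5, where 2.23% of the 3535 genes of the class were 2-fold higher and 1.27% 2-fold lower and the median gene was at 0.00. Iigp1, an interferon-induced GTPase that attacks the vacuoles of intracellular pathogens, stood at 147 CPM in CTX, 22.3 in MRX and 159 in Combined, a log2 ratio of 2.67 (2.54 to 2.90). Gbp2, a guanylate-binding protein, was at 183, 45.0 and 260 CPM in the same order (2.0, 1.90 to 2.15, but 0.84 with the same mix). The transcription factor Irf1 was at 197 CPM in CTX and 69.8 in MRX, a log2 ratio of 1.48. Socs1, the feedback inhibitor of the same pathway, was at 79.0 CPM in CTX and 19.7 in MRX (1.95). For these genes the Combined library lay at or above the CTX level, and MRX was the low library of the 3. With the same cluster mix the median of the list was 0.84, and Iigp1 (1.84), Irf1 (1.35) and Socs1 (1.15) were the members still past 2-fold.

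The 3 ligands of CXCR3, which draw activated T cells, behaved differently once clusters were matched. Over the whole class Cxcl9 was at 1038 CPM (1029 to 1047) in CTX, 307 (297 to 317) in MRX and 1017 in Combined, a log2 ratio of 1.75. Cxcl10 was at 231 and 70.0 CPM (1.71) and Cxcl11 at 391 and 121 CPM (1.69). With the same cluster mix the ratios were 0.33 for Cxcl9, 0.21 for Cxcl10 and 0.00 for Cxcl11. In cluster 0 the 109 MRX cells carried slightly more Cxcl9 than the 1887 CTX cells, 1376 against 1264 CPM (-0.12, interval -0.20 to -0.04). In cluster 11 Cxcl9 was at 451 CPM in CTX and 71.9 in MRX (2.63), and in cluster 5 at 263 and 142 (0.89). In cluster 3 it was at 1069 and 711 CPM (0.59, interval 0.50 to 0.67). Besides the larger share of CTX cells in the Cxcl9-high clusters 0 and 3, levels were thus higher in CTX in clusters 3, 5 and 11.

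Type I interferon-stimulated genes differed less and turned with the clusters. Only Oasl1 (190 against 73.5 CPM, 1.36, and 0.52 with the same mix) of the 9 members past the filter was 2-fold higher, and the list median was 0.74 over the class and -0.23 with the same cluster mix. Rsad2, the antiviral protein viperin, was at 259 CPM in CTX and 741 in MRX in cluster 0, but at 62.3 and 15.6 CPM in cluster 5. Isg15, a ubiquitin-like interferon product, was at 1205 and 2102 CPM in cluster 0 and at 578 and 179 in cluster 11. All 9 members had a ratio below 0 in cluster 0 and above 0 in clusters 5 and 11. In cluster 3, with 1531 CTX and 200 MRX cells, 6 of the 9 were below 0, among them Rsad2 (-0.49) and Irf7 (-0.26), and Isg15 was at 0.06.

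**Figure D3:**
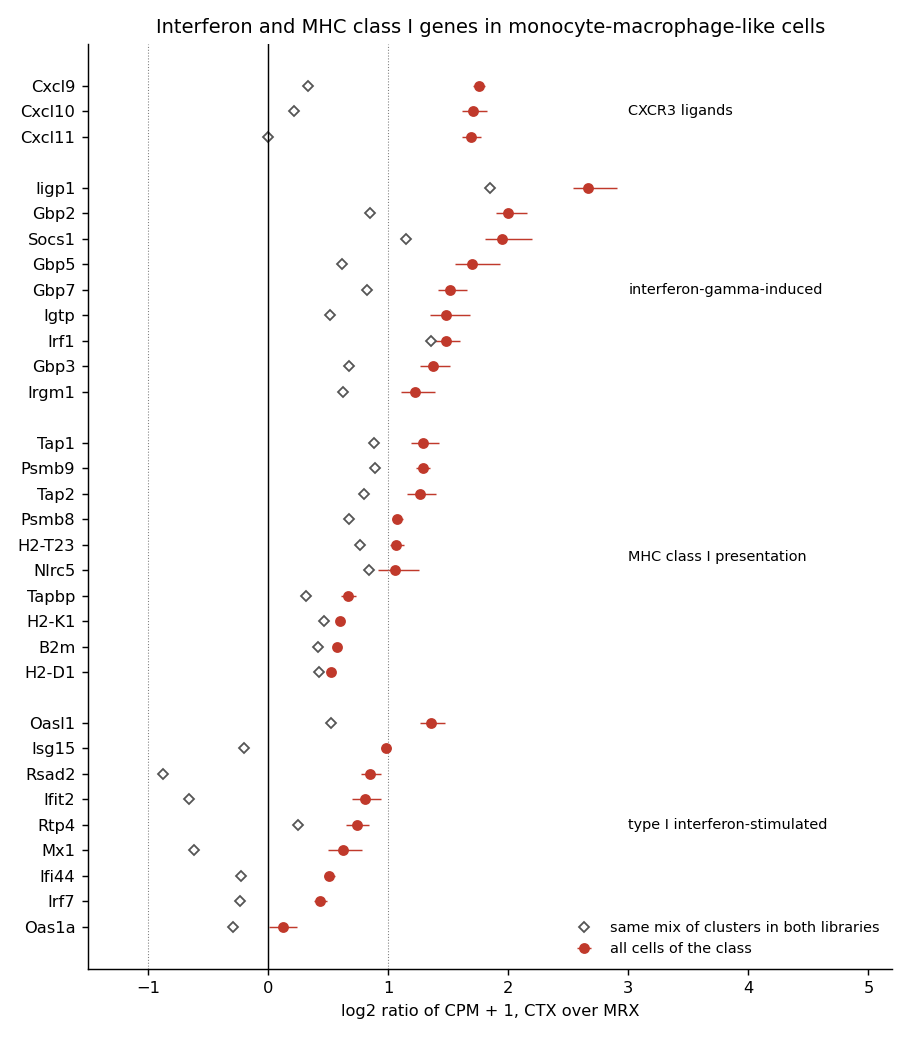
Log2 ratio of CPM + 1, CTX over MRX (x axis), for expressed members of 4 gene lists (y axis) in monocyte-macrophage-like cells. Red circles are sums over all cells of the class with exact 95% intervals of counting error, grey diamonds the same with equal cluster mix, and dotted lines mark 2-fold. Cxcl9 moves from 1.75 to 0.33 and Rsad2 from 0.85 to -0.88 between the 2 ways of summing, while Iigp1 stays past 2-fold.

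The promoters of the interferon-gamma-induced genes and CXCR3 ligands were searched because these genes were higher together. RefSeq promoter windows (GRCm38.p6, from 250 bases before to 50 after the start) were matched for 11 of the 15 genes. The interferon-stimulated response element, searched on both strands as a pair of GAAA half-sites with 2 bases between them, was found in 9 of the 11 genes, against 3.99% of all 27025 genes and 3.44% of all 32851 windows. The gamma-activated site TTCNNNGAA, its own reverse complement, was found in 5 of the 11, against 9.55% of all genes and 8.30% of all windows. The lists were chosen as genes of the interferon response, so these shares do not bear on the levels in CTX and MRX. Gbp2, Gbp3, Gbp5 and Gbp7 also lie close together on chr3, so the genes are not independent. Neither was found in the window of Cxcl9, a member of the searched lists. Neither was found in the windows of Cd274, Pdcd1lg2, Tap1 and Psmb9, which belong to other lists. The 3 windows below show a gene with the first motif alone (Gbp2, chr3:142620413-142620712, plus strand), with both side by side (Igtp, chr11:58199306-58199605, plus strand) and with the second alone (Irf1, chr11:53769764-53770063, plus strand). Capitals mark the motifs, and a match is a description of letters and not evidence of binding.
Gbp2: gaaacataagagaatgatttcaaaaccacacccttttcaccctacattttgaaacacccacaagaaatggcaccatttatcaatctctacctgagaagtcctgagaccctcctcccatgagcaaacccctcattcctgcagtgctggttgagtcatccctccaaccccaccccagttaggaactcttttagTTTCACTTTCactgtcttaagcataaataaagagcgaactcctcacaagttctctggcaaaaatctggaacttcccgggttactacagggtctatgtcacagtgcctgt
Igtp: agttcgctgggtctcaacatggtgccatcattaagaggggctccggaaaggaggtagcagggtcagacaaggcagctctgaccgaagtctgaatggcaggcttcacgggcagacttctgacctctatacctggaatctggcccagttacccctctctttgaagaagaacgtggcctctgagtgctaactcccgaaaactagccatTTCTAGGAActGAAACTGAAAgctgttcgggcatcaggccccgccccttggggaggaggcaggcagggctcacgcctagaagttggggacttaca
Irf1: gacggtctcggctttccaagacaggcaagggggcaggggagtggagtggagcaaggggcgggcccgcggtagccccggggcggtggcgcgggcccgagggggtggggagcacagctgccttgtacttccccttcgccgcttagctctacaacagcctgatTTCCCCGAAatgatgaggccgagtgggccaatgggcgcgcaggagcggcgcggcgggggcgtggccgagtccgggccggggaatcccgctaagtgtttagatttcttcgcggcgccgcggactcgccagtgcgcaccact

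Antigen presentation and checkpoint ligands followed the same direction in these cells. Of the 10 genes of MHC class I presentation, 6 were 2-fold higher in CTX, among them the peptide transporter Tap1 (142 against 57.6 CPM, 1.29) and the immunoproteasome subunit Psmb9 (575 against 235, 1.29). With the same mix Tap1 was at 0.88 and Psmb9 at 0.89, both under 2-fold, and the list median was 0.72. The class I heavy chain H2-K1 and B2m were higher by less than 2-fold. Among the genes named in this class, the widest gap was in 1 of the ligands of PD-1. Pdcd1lg2 (PD-L2) was at 70.7 CPM (68.4 to 73.1) in CTX, 4.74 (3.57 to 6.17) in MRX and 53.4 in Combined, with a UMI in 1259 of 4206 CTX and 51 of 1351 MRX cells. Outside the class Pdcd1lg2 was higher, at 79.5 CPM in CTX and 29.4 in MRX, and the part of RNA from other cells was not tested. Its log2 ratio was 3.64 over the class, 3.11 with the same cluster mix, and between 2.53 and 3.83 within each of the 4 clusters. Cd274 was at 422 CPM in CTX and 109 in MRX (1.94, and 1.35 with the same mix).

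Ly6a, the surface protein Sca-1 and a known interferon-responsive gene, was at 944 CPM in CTX, 78.7 in MRX and 828 in Combined, a log2 ratio of 3.57 (2.45 with the same mix). After thinning every cell to 1000 UMIs, 41.1% of the CTX and 4.24% of the MRX monocyte-macrophage-like cells had a Ly6a UMI (71.7% and 14.3% unthinned, at median depths of 9582.5 and 8107 UMIs). In B-like cells the thinned shares were 11.6% and 7.80%, at median depths of 3977 and 4847.5 UMIs. Among chemokines of the CC family, which recruit monocytes and lymphocytes, Ccl8 stood out at 581 CPM in CTX and 154 in MRX (1.91). Unlike Cxcl9, Ccl8 had a larger ratio with matched clusters (2.92), and it was higher in CTX in each of the 4, from 2.22 in cluster 0 to 4.11 in cluster 5. Combined held 207 CPM of Ccl8, nearer MRX than CTX.

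Metabolic genes of these cells were mixed. Lpl, the lipoprotein lipase, was at 105 CPM in CTX and 20.3 in MRX (2.32, and 2.05 with the same mix), and the fatty acid receptor Cd36 at 121 and 42.4 (1.49 and 1.80). Spp1 (osteopontin) and Trem2, marks of lipid-associated macrophages, were lower in CTX, at 364 against 810 CPM (-1.15) and 85.6 against 181 (-1.07), but by less than 2-fold with the same mix (-0.97 and -0.55). Slc7a2, an arginine importer, was at 53.8 CPM in CTX and 12.4 in MRX (2.03, and 1.28 with the same mix). Acod1, which makes itaconate, was at 59.1 CPM in CTX and 13.6 in MRX (2.04, and 0.73 with the same mix).

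The genes lowest in CTX monocyte-macrophage-like cells included chemokines and heat shock genes. Cxcl13, a B-cell attractant, was at 7.05 CPM in CTX and 63.1 in MRX (-2.99, and -2.36 with the same mix). Its counts came from few cells: 55 of 4206 in CTX and 21 of 1351 in MRX, with 289 of the 732 MRX counts in 1 cell. Lrg1, a secreted glycoprotein, was at 6.13 and 52.4 CPM (-2.90, and -2.01 with the same mix). Outside the class Lrg1 was at 6.05 CPM in CTX and 44.0 in MRX, so its gap was not particular to these cells. The neutrophil-attracting chemokines Cxcl2 (1219 against 2540 CPM, -1.06) and Cxcl3 (46.4 against 141, -1.58) were lower, as was the complement receptor C5ar1 (139 against 290, -1.05). With the same mix these 3 differed by less than 2-fold (-0.97 for Cxcl2, -0.85 for Cxcl3 and -0.89 for C5ar1). Cxcl3 was also lower in CTX outside the class, at 9.18 against 59.6 CPM. Pf4, the chemokine platelet factor 4, was at 29.5 and 101 CPM (-1.74) but differed by -0.11 with the same mix. Hspa1a and Hspa1b, inducible heat shock proteins that also respond to tissue handling, were at 11.1 against 63.2 CPM and 11.2 against 60.1 CPM (-1.91 and -1.79 with the same mix). The whole list of immediate early and heat shock genes that respond to handling lay lower in CTX: 0 of the 9 members past the filter had a positive ratio, 2 were 2-fold lower, and the median was -0.71. In conventional dendritic-like cells 1 of 9 was positive, with a median of -0.62, in NK-like cells 0 of 7 (-0.39) and in neutrophil-like cells 3 of 9 (-0.34). It was 3 of 7 in T-like (-0.13), 5 of 10 in pDC-like (0.13) and 7 of 10 in B-like cells (0.32, with 2 past 2-fold higher). The part of handling in the other differences was not tested.

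Mertk itself, the receptor that the MRX drug targets, was low in these cells, at 20.8 CPM (19.5 to 22.1) in CTX, 35.4 (32.1 to 39.0) in MRX and 16.6 in Combined. Its log2 ratio was -0.74, and -0.49 with the same cluster mix. The drug acts on the protein, so this RNA level does not check the label. Axl, a related receptor, was at 79.4 and 75.0 CPM (0.08), and the ligand Gas6 was at 7.98 and 10.9 CPM. Of the 124 genes past 2-fold in this class, 79 were higher and 45 lower in CTX. With the same cluster mix these counts were 33 and 14, of which 29 and 14 were the same genes. Among markers of other cell types in this class, those of T cells summed to 43.4 against 21.0 CPM (1.01) and those of type 2 conventional dendritic cells to 385 against 225 (0.77). Those of B cells (0.01) and neutrophils (-0.05) differed little, and those of type 2 innate lymphoid cells were lower (-0.66). Their part in the ratios of this class was not tested.

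Conventional dendritic-like cells showed the interferon-gamma pattern with nearly the same cluster shares, although markers of their subsets differed. Clusters 12 and 23 held 91.9% and 8.13% of the class in CTX and 91.8% and 8.15% in MRX. Of the 10 interferon-gamma-induced genes past the filter 9 were 2-fold higher in CTX, where 3.73% of the 3616 genes of the class were 2-fold higher and 2.41% 2-fold lower. Gbp2 was at 133 CPM in CTX and 21.7 in MRX (2.57) and Iigp1 at 91.8 and 12.3 (2.80). Cxcl9 was at 772 CPM (750 to 793) in CTX, 88.6 (76.1 to 103) in MRX and 654 in Combined, a log2 ratio of 3.11. It was seen in 273 of 443 CTX and 31 of 184 MRX cells, but its level in all cells outside the class was much the same, 726 CPM in CTX and 112 in MRX, so the part of free RNA in these shares was not tested. Cluster 23, with 15 MRX cells, was left out of the same mix, so the ratios so made in this class are those of cluster 12 alone. Pdcd1lg2 was at 225 and 28.5 CPM (2.93), above the 60.8 and 20.8 CPM of all cells outside the class.

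Of the 9 markers of type 1 conventional dendritic cells, which cross-present antigen, 5 had a log2 ratio of -1 or lower. These were Xcr1 (18.2 against 52.7 CPM, -1.49), Cadm1 (48.4 against 162, -1.72) and, below 50 CPM in both libraries, Snx22 (-1.64), Gcsam (-1.76) and Tlr3 (-1.35). Among the markers of type 2 cells Mgl2 (1.77) and Ccl17 (2.60) were 2-fold higher and Cd209a (-1.02) lower. A different subset mix within the clusters and a different level per cell cannot be told apart here, and the part of subsets in the ratios of this class was not tested.

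Genes known from macrophages were also higher in this class. Lpl was at 165 CPM in CTX and 4.92 in MRX (10 counts), and Dcstamp, a membrane protein of cell fusion, at 109 and 12.8. All 16 monocyte-macrophage markers had counts in the class in both libraries, with a summed level of 6284 CPM in CTX and 3186 in MRX, and 5 of the 16 were 2-fold higher in CTX. Their part in the higher Cxcl9 and complement genes (C3 at 127 against 13.8 CPM) was not tested. Of the 8 oxidative stress genes 5 passed the filter and 3 of these were 2-fold higher: haem oxygenase Hmox1 (80.1 against 10.3 CPM, 2.84), the cystine carrier Slc7a11 (2.01) and Gclc (1.96) of glutathione synthesis. The list median was 1.96, and 0.83 with each cell thinned to 1000 UMIs.

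Flt3, the growth factor receptor that maintains dendritic cells, was at 48.8 CPM (43.5 to 54.5) in CTX, 165 (148 to 183) in MRX and 71.8 in Combined (-1.74). Tnfsf9, the ligand of the costimulatory receptor 4-1BB, was at 24.7 and 91.5 CPM (-1.85). P3h2, a collagen hydroxylase, had the lowest ratio of the class (-3.24), from 42 counts in 8 CTX cells and 142 counts in 23 MRX cells. MHC class II presentation genes were all between, with a median of -0.16.

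**Figure D4:**
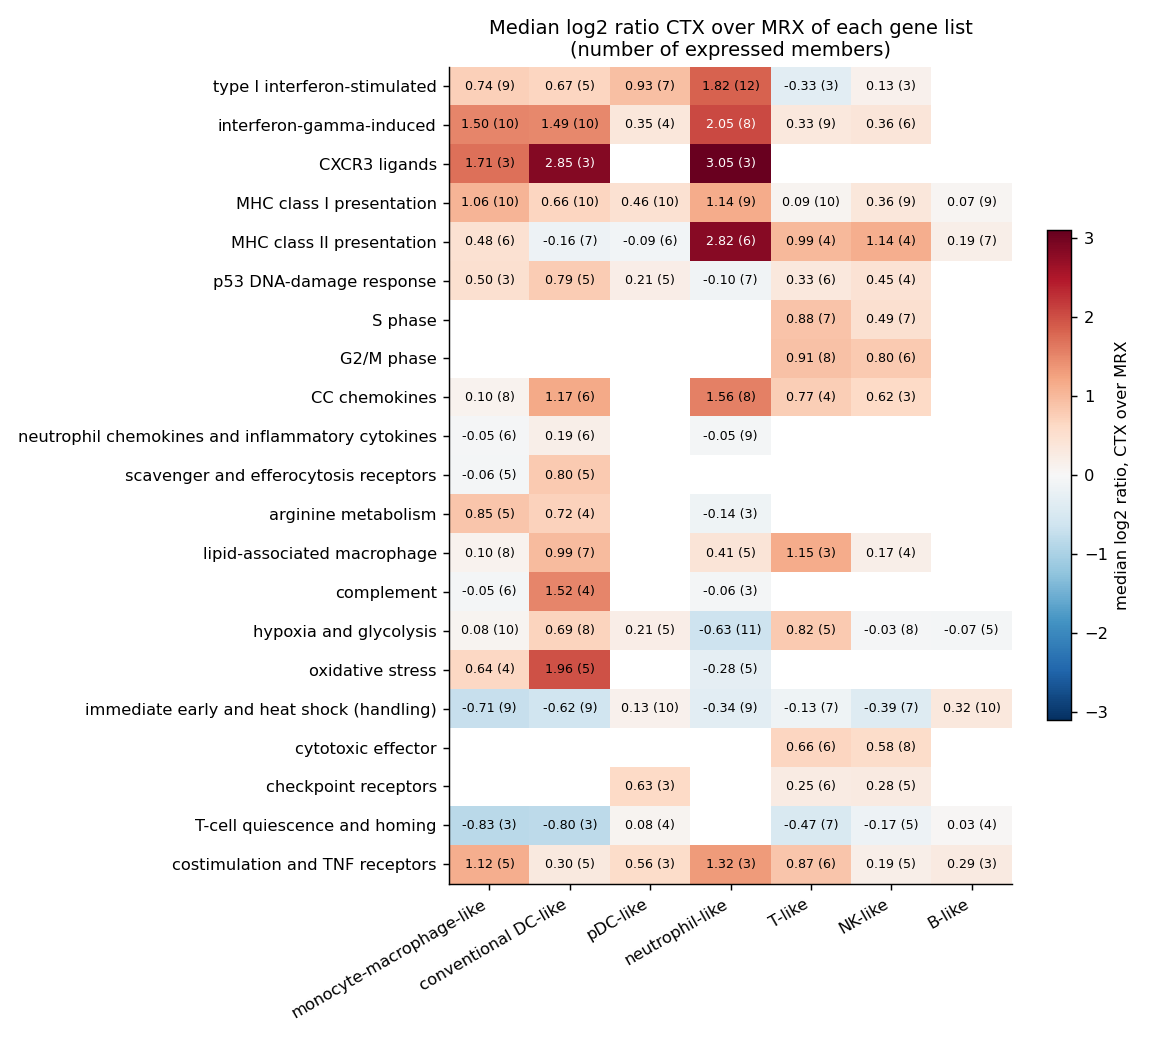
Median log2 ratio of CPM + 1, CTX over MRX (colour), for each gene list (rows) in each class (columns), with the number of expressed members in brackets. Cells are blank where fewer than 3 members passed the filter. Interferon-gamma-induced genes have a median of 1.5 in monocyte-macrophage-like, 1.49 in conventional dendritic-like, 2.05 in neutrophil-like and 0.33 in T-like cells.

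Plasmacytoid dendritic-like cells differed little by count, with 0.974% of 3798 genes 2-fold higher and 0.474% lower. Of the interferon-gamma-induced genes 1 of the 4 past the filter was 2-fold higher, with a list median of 0.35. This was Iigp1, at 138 CPM in CTX and 26.9 in MRX (2.31, 1.93 to 2.80), near its level outside the class (121 and 24.5 CPM). Of the type I interferon genes 3 of 7 were past 2-fold, among them Ifit2 (61.3 against 21.0, 1.5) and Usp18 (1.36), with a list median of 0.93. Tnf, the inflammatory cytokine, was at 131 CPM in CTX, 39.2 in MRX and 35.8 in Combined (1.71). Ccnd2, a G1 cyclin, was at 331 and 98.5 CPM (1.74). Il12a, a subunit of interleukin 12, was lower, at 86.3 CPM in CTX and 199.8 in MRX (-1.20), seen in 55 of 163 CTX and 158 of 266 MRX cells. Peli2, a ubiquitin ligase of the Toll-like receptor pathway, was at 102 and 247 CPM (-1.27). A pair of large ratios rested on 1 cell: 124 of the 126 Hspb1 counts and 95 of the 137 Hspa1a counts of CTX. Markers of monocyte-macrophages summed to 1257 CPM in CTX and 1250 in MRX. Those of lymphocytes were higher in CTX: the 10 T-cell markers summed to 311 against 75.3 CPM (2.03, 9 of 10 with a log2 ratio of 1 or more), the 10 B-cell markers to 102 against 30.1 (1.73, 7 of 10) and the 9 NK markers to 11.8 against 1.82. Their part in the higher genes of this class was not tested.

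Neutrophil-like cells had the most genes past 2-fold, 11.5% of 3012 higher and 9.1% lower, or 346 and 274 genes, from 96 CTX cells and a sum of 506715 UMIs. The counts were 151 and 360 at the finer clustering and 449 and 175 with median-of-ratios scaling. Type I interferon genes were among the higher ones, with 10 of the 12 members past the filter 2-fold higher and a median of 1.82. Rsad2 was at 2362 CPM in CTX, 345 in MRX and 637 in Combined (2.77), and was seen in 65 of 96 CTX and 78 of 466 MRX cells. Isg15 was at 5449 and 2223 CPM (1.29). Outside the class CTX held 127 CPM of Rsad2 and 695 of Isg15, so both were higher in these cells than around them. The 8 interferon-gamma-induced genes past the filter were all 2-fold higher, among them Gbp2 (446 against 108 CPM) and Irf1 (365 against 123). Cxcl10 was at 1500 CPM in CTX and 180 in MRX (3.05), against 188 CPM outside the class in CTX.

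Other genes of the CTX neutrophil-like cells lay below the level of the cells around them. Cxcl9 was at 485 CPM in CTX and 44.6 in MRX (3.41), but at 731 and 113 CPM outside the class, and H2-Aa, an MHC class II chain, at 4622 and 684 CPM against 7763 and 4370 outside. Of the 16 monocyte-macrophage markers all had counts in both libraries, 11 were 2-fold higher in CTX, and their summed level was 12007 CPM in CTX and 9798 in MRX. Markers of type 1 conventional dendritic cells summed to 375 CPM in CTX and 115 in MRX (1.70, 5 of 9 with a log2 ratio of 1 or more), those of pDC to 756 and 331 (1.19) and those of B cells to 39.5 and 11.5 (1.70). Of the 10 markers of neutrophils themselves 9 had ratios below 0, among them Retnlg (-1.83), Mmp9 (-1.51), Cxcr2 (-1.09) and Csf3r (-0.77). Ly6g went the other way (2.01) at a low level, 27.6 against 6.09 CPM. The part of other cell types in the ratios of this class, the interferon genes included, was not tested. The granule genes of immature neutrophils came from 1 CTX cell, which held 331 of 332 Camp, 627 of 630 Ngp and 142 of 153 Ltf counts.

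The genes lower in CTX neutrophil-like cells included those of low oxygen. Of 11 hypoxia and glycolysis genes past the filter 3 were 2-fold lower: the disulfide oxidase Ero1a (223 against 875 CPM, -1.97), the mitophagy receptor Bnip3 (130 against 471, -1.85) and hexokinase Hk2 (109 against 282, -1.37). The list median was -0.63, where the median over all genes of the class was -0.19. Gpc3, a cell surface proteoglycan, had 5 counts in CTX and 566 in MRX, or 9.87 against 383 CPM (-5.14), and was seen in 176 of 466 MRX cells. Alox5, which starts leukotriene synthesis, was at 11.8 and 84.5 CPM (-2.74). Cxcl3 was at 310 and 934 CPM (-1.59), lower in CTX as in the monocyte-macrophage-like cells. 

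T-like cells differed first in their subsets. CD8-like clusters 6 and 7 made up 30.8% of the T-like cells in CTX (526 of 1707, 28.6 to 33.1%) and 57.0% in MRX (1052 of 1845, 54.7 to 59.3%), and most of the gap was in cluster 6 (13.5% against 36.6%). At a finer clustering the difference was -15.9 points in place of -26.2. After thinning to 1000 UMIs, 20.2% of CTX and 26.4% of MRX T-like cells had a Cd8b1 UMI, against 1 of 559 and 0 of 295 B-like cells. Unthinned these shares were 42.3% and 53.1%, at median depths of 5546 and 4711 UMIs.

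Clusters 13 and 16, in which Cd4 and Cd8a were both common, held 23.4% of the T-like cells in CTX and 6.72% in MRX. Cluster 16, led by cell-cycle genes, was 13.8% and 4.50%. The regulatory (Treg)-like cluster 9 was 17.4% and 10.2%, but this gap of 7.16 points (4.89 to 9.43) was between 1.79 and 2.18 points under 4 of the 5 alternatives, and in 3 of these 4 its interval included 0. Foxp3, the defining factor of regulatory T cells, had a UMI in 4.34% of CTX and 1.91% of MRX T-like cells after thinning (14.6% and 7.37% unthinned), and in 0 of 559 and 0 of 295 thinned B-like cells. Gamma-delta-like cells (cluster 22) numbered 6 in CTX and 46 in MRX. As shares of all kept cells, CD8-like cells were 6.17% of CTX and 20.4% of MRX, while Treg-like cells were 3.49% and 3.66%.

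In gene levels, 1.57% of 3816 genes were 2-fold higher in CTX T-like cells and 0.55% lower, or 60 and 21 genes, and with the same cluster mix 12 and 4. Cdkn1a, the cell-cycle inhibitor p21 and a p53 target, was at 196 CPM (189 to 204) in CTX, 44.8 (40.8 to 49.1) in MRX and 232 in Combined. Its log2 ratio was 2.11, 1.90 with the same mix, and positive, from 1.17 to 2.87, in the 7 clusters with at least 20 cells in each library, which leaves out cluster 22. After thinning to 1000 UMIs, 12.0% of CTX and 3.59% of MRX T-like cells had a Cdkn1a UMI (39.9% and 13.6% unthinned), against 2.50% and 0 of 295 B-like cells, which allows up to 1.24%. Cells outside the T-like class held 1059 CPM in CTX and 686 in MRX, and the part of their RNA in the T-like level was not tested. The other 5 p53 response genes past the filter were between, with a list median of 0.33. In monocyte-macrophage-like cells Cdkn1a was abundant in both libraries, at 1266 and 1023 CPM.

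Effector genes of T-like cells were mixed. Of the 6 cytotoxic effector genes past the filter 2 were 2-fold higher in CTX and 4 between, with a median of 0.66 (0.39 with the same mix) and the lowest, Fasl, at -0.65. Ifng, the gene of interferon gamma, was at 174 CPM (167 to 181) in CTX, 52.4 (48.0 to 57.0) in MRX and 278 in Combined (1.71, and 0.89 with the same mix). It was highest in cluster 13, at 886 CPM in CTX and 451 in MRX. Gzma, a granule protease, was at 187 and 79.9 CPM (1.22, and 1.28 with the same mix), and Gzmb at 569 and 393 (0.53). The chemokine Ccl3 was at 124 and 17.1 CPM (2.78, and 1.51 with the same mix), with 255 of its 1623 CTX counts in 1 cell. Ccl5 went the other way, at 904 against 2955 CPM (-1.71, and -0.91 with the same mix), and was lower in CTX inside cluster 6 as well, 4080 against 8303 CPM (-1.02).

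Of the proliferation genes past the filter in T-like cells, 2 of 7 S-phase and 3 of 8 G2/M genes were 2-fold higher in CTX and the others between, all with positive ratios. The medians were 0.88 for S-phase and 0.91 for G2/M genes, and 0.47 and 0.25 with the same cluster mix. Rrm2, a ribonucleotide reductase subunit, was at 168 and 65.7 CPM (1.34, and 0.60 with the same mix) and Birc5 (survivin) at 172 and 72.9 (1.23 and 0.44). Inside the cycling cluster 16 the marker Mki67 was lower in CTX, 1183 against 1850 CPM (-0.64). The costimulatory receptors Tnfrsf9 (626 against 258 CPM, 1.28) and Tnfrsf4 (0.99) were higher over the class and differed by 0.36 and 0.27 with the same mix. Txnip, Pdcd4, Klhl6 and the cyclin Ccnd3 were lower, between -1.19 and -1.56, but by less than 2-fold with the same mix (-0.75 for Txnip, -0.82 for Pdcd4, -0.99 for Klhl6 and -0.94 for Ccnd3). Spp1 was at 98.6 and 10.7 CPM in T-like cells, with 361 and 515 CPM in the cells outside the class. The monocyte-macrophage markers summed to 583 CPM in CTX and 616 in MRX T-like cells. Higher in CTX were the summed markers of type 1 (113 against 39.4 CPM, 1.49) and type 2 conventional dendritic cells (24.7 against 11.9, 0.99). Their part in the T-like ratios was not tested. The markers of type 2 innate lymphoid cells were also higher in sum (245 against 100.1, 1.28). Il1rl1 of that list leads the Treg-like cluster 9, so the sum does not stand for another cell type alone.

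NK-like cells were close to each other, with 0.379% of 3695 genes 2-fold higher and 0.244% lower. All 8 cytotoxic effector genes were between. Gzmb was at 2522 CPM in CTX and 1412 in MRX (0.84), Gzma at 6419 and 3873 (0.73) and perforin Prf1 at 1225 and 742 (0.72), while the chemokine Xcl1 was at 1167 and 1907 (-0.71). Cycling cluster 18 held 17.9% of the NK-like cells in CTX and 7.83% in MRX, and Birc5 (100.1 against 47.8 CPM, 1.05) was at 0.20 with the same mix. Styk1, a kinase-like protein of NK cells, was at 48.0 CPM in CTX, 132 in MRX and 34.7 in Combined (-1.44). Inpp4b, a phosphoinositide phosphatase, was at 260 and 578 CPM (-1.15).

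B-like cells had the fewest genes past 2-fold, 0.227% of 3530 higher and 0.198% lower. Hspa1a (61.2 against 14.6 CPM, 2.0) and Hspa1b (82.3 against 20.6, 1.95) were higher, the reverse of the monocyte-macrophage-like cells, from 36 and 49 CTX cells and 5 and 6 MRX cells. Irf1 was at 162 and 80.1 CPM (1.00), below its level outside the class (193 and 133 CPM), and at 0.30 after thinning. Ptpn22, a phosphatase that restrains antigen receptor signalling, was at 153 CPM in CTX, 453 in MRX and 156 in Combined (-1.57). Sesn1, a stress-induced regulator of growth signalling, was at 96.4 and 235 CPM (-1.28). MHC class II presentation genes had a median of 0.19.

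Across all 7 classes, 1765 genes passed the filter everywhere. Of these 155 were higher in CTX in every class and 160 lower in every class, and none was past 2-fold in all 7 in either direction. Ly6a led the higher genes, with log2 ratios from 0.45 in B-like to 5.74 in neutrophil-like cells. In NK-like cells Ly6a was at 118 CPM in CTX and 16.7 in MRX, in T-like cells at 683 and 247, and in neutrophil-like cells at 557 and 9.47 with 811 and 151 CPM outside the class. The NK-like values lay far below the 857 and 169 CPM outside that class. In NK-like cells 7 of 16 monocyte-macrophage markers were also 2-fold higher in CTX (summed level 765 against 549 CPM), and B-cell markers summed to 14.3 against 1.64 CPM. The part of RNA from other cells in Ly6a was not tested. Next came peroxiredoxins Prdx5 (0.33 to 1.77) and Prdx1 and the immunoproteasome subunits Psmb10 (0.28 to 1.85) and Psmb9 (0.25 to 1.98). Psmb10 and Psmb9 are known to be induced by interferon gamma.

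Tsc22d3, which encodes the glucocorticoid-induced leucine zipper GILZ, was the gene lowest in CTX across lineages. It was at 45.3 against 128 CPM in monocyte-macrophage-like, 34.2 against 171 in conventional dendritic-like, 91.2 against 180 in pDC-like and 69.1 against 288 in neutrophil-like cells. In lymphoid cells it was at 106 against 293 CPM in T-like, 96.4 against 218 in NK-like and 170 against 380 in B-like cells. Monocyte-macrophage-like and conventional dendritic-like cells lay below the level outside their class, 89.2 and 256 CPM and 64.8 and 216 CPM. T-like, NK-like, B-like and neutrophil-like cells lay above it in both libraries, and pDC-like cells in CTX only. The part of RNA from other cells in Tsc22d3 was not tested. The log2 ratios ran from -0.97 to -2.29, and Combined, from 43.1 to 169 CPM, lay nearer CTX than MRX in every class. Per1, a clock gene that glucocorticoids also induce, was lower in all 7 classes (-0.27 to -1.36), as was Zfp36l2 (-0.35 to -1.29), an RNA-decay factor. Other glucocorticoid-inducible genes were looked at after these values were seen. Fkbp5 was lower in all 7 classes (-0.17 to -1.62) but passed the filter in 3, and Sgk1 ran from -0.24 to 0.40 in the 4 classes where it passed. Klf9 passed in none. Txnip passed in all 7, at 0.49 in monocyte-macrophage-like cells (0.24 with the same mix) and from -0.15 to -1.32 in the others. Ddit4 passed in 3, at -1.40 in conventional dendritic-like, -0.33 in NK-like and 0.48 in T-like cells, the last -0.16 with the same mix.

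**Figure D5:**
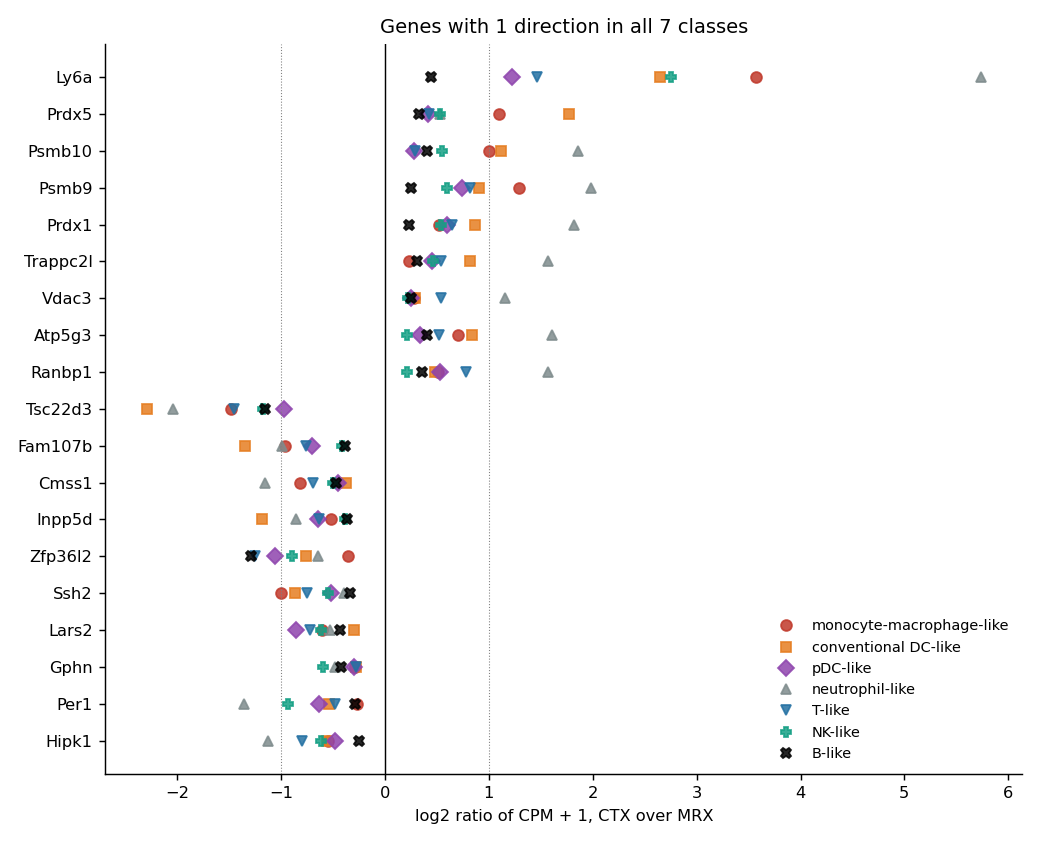
Log2 ratio of CPM + 1, CTX over MRX (x axis), for the leading higher and lower genes of 1 direction in all 7 classes (y axis), with 1 symbol per class and dotted lines at 2-fold. Ly6a ranges from 0.45 to 5.74 and Tsc22d3 from -0.97 to -2.29.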

How the data were processed

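Droplet libraries of CD45-sorted tumour cells were made with on-chip multiplexing, per the labels' protocols, and the deposited matrices hold raw UMI counts per gene and barcode from Cell Ranger 9.0.1, per the file headers. GRCm39 and Seurat 5.2.0 are named, with no role, in the submitters' processing notes. Members and gene lists were chosen with earlier results of these data known. Cells with at least 200 genes and at most 15% mitochondrial counts were kept, which removed 52 MRX and 166 CTX barcodes. Scrublet (scanpy 1.11.5) marked under 0.5% of cells, so the highest 5% of scores were removed, ties kept (271 MRX and 378 CTX cells). The 2000 most variable genes without list, mitochondrial, ribosomal, haemoglobin and receptor segment genes gave 30 components, and 15 neighbours were clustered (leidenalg 0.10.2, resolution 1) over 5 libraries without integration. Clusters took the class with the highest mean of its 5 best scaled markers. Clusters with a runner-up lineage at 0.4 of the top score or more, and median UMIs above 1.5 of their libraries', were kept out, a rule set after seeing the data. The B-like class was compared by the cluster whose leading genes matched it.

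Class counts were summed per library, with exact Poisson intervals of CPM, exact conditional binomial intervals of ratios (without the pseudocount of 1 CPM), Clopper-Pearson intervals of shares and Newcombe intervals of their differences. The pseudocount understates the change of low genes. The same-mix ratio weights the level of each cluster by its mean share over both libraries, over clusters with at least 20 cells in each. Named per class were the 10 highest and 10 lowest genes past 2-fold that were no marker and no leading gene and reached 0.5 times the CPM outside the class, the 4 list members furthest from 0, and Cxcl9, Mertk, Gas6 and Axl where expressed. Other genes named, among them Irf1, Isg15, the glucocorticoid-inducible genes, and Mertk and Gas6 below the filter, were chosen after their values were seen. Some items are not reported here. Ratio steps were tested on simulated data. Sums ranged from 506715 UMIs (CTX neutrophil-like) to 48618980 (CTX monocyte-macrophage-like). CTX shares 34 barcodes with combod18t, which, like ctxd18t, was used in clustering only.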

Additional observations from a re-analysis of the deposited data

Results flagged for a closer look

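The inducible heat shock genes differed in opposite directions between lineages, a difference between lineages that was not tested. Hspa1a had a log2 ratio of CTX over MRX of 2.0 in B-like and 1.43 in plasmacytoid dendritic-like cells, but -2.41 in monocyte-macrophage-like and -1.496 in conventional dendritic-like cells. Hspa1b had 1.95 in B-like, -2.32 in monocyte-macrophage-like and -1.29 in conventional dendritic-like cells. In the plasmacytoid class 95 of the 137 CTX counts of Hspa1a came from 1 cell, and with each cell thinned to 1000 UMIs the ratio there turned to -0.10.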

How the results depend on the processing

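No paired analysis was possible because each drug has 1 library, and no replicate could be left out. Of the alternative values of the class shares and the counts of 2-fold genes, 156 stayed close to the main value and 42 moved. Of those for single genes and list medians, 4931 stayed, 691 moved and 3 that were past 2-fold turned sign. Smaller values turned sign too, among them the type I interferon median of monocyte-macrophage-like cells (-0.23 with the same mix). With the mixed clusters kept, clusters 10 and 19 were both counted as monocyte-macrophage-like, although pDC markers are among the leading genes of cluster 19. The pDC-like difference therefore stayed at -3.23 points, and the monocyte-macrophage-like difference was 29.1 points. Among cells outside that class the differences were 5.45 points for conventional dendritic-like, -9.98 for neutrophil-like, -8.75 for T-like, -3.05 for NK-like and 5.23 for B-like cells. The CD8-like difference among T-like cells was -15.9 points at resolution 2. The Treg-like difference was 1.79 points with at least 500 genes per cell, 1.89 with doublets kept, 2.18 with clusters from CTX and MRX alone and 1.95 with at most 10% mitochondrial counts, and the interval included 0 in all of these but the one with clusters from CTX and MRX alone. The B-like difference had an interval that included 0 with at least 500 genes per cell (from -0.02), doublets kept (-0.004), resolution 2 (-0.003) and clusters from CTX and MRX alone (-0.06).

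With the same mix of clusters, 33 genes were 2-fold higher and 14 lower in monocyte-macrophage-like cells, and 12 and 4 in T-like cells. With no filter beyond 1 count in each library, the higher and lower counts were 182 and 185 in monocyte-macrophage-like, 573 and 606 in conventional dendritic-like, 538 and 388 in pDC-like, 1856 and 1070 in neutrophil-like, 292 and 122 in T-like, 202 and 159 in NK-like and 326 and 296 in B-like cells. With each cell thinned to 1000 UMIs, and so fewer genes past the filter, they were 55 and 19 in conventional dendritic-like, 4 and 5 in pDC-like and 74 and 82 in neutrophil-like cells, with 4 higher in NK-like and 3 in B-like cells. A pseudocount of 10 CPM left 10 genes lower in pDC-like, 5 lower in NK-like and 4 higher in B-like cells. In neutrophil-like cells 151 genes were higher at resolution 2 and 175 lower with median-of-ratios scaling, which moved all log2 ratios of that class by 0.19. Hspa1a in pDC-like cells had a log2 ratio of -0.10 after thinning. With doublets kept, Tnfrsf9 in pDC-like cells had -0.41 and Ccl5 in neutrophil-like cells -0.062. The causes were not tested. The 96 CTX neutrophil-like cells set the limit of precision in that class.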
